A study of Mus musculus with 6 samples.

Results

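Cytokine signalling through interleukin 6 (IL-6) and interleukin 1 (IL-1) was followed here in 10 genes of mouse liver, taken from a table of 24489 gene entries by their exact symbols. They comprise the ligands Il6, Il1b and Tnf, the antagonist Il1rn, the receptors Il6ra, Osmr, Lifr and Il1r1, the transcription factor Stat3 and the feedback inhibitor Socs3. All 10 symbols had an entry, and 9 passed the filter on low counts. Il6 did not, and its reads are described without a test. Liver RNA came from pups at postnatal day 10 on a C3H/C57bl6J background, with 3 libraries of the genotype Jag1+/+ and 3 of Jag1Ndr/Ndr, none of them treated. The product of Jag1 activates Notch receptors on neighbouring cells, and Ndr (Nodder) is a germline missense allele, so all cells of these pups carry it. Homozygotes model Alagille syndrome, whose patients have too few bile ducts inside the liver and impaired bile flow. Polyadenylated RNA of a single liver lobe was sequenced with a kit that leaves strand unmarked, so each value averages over all cell types of that lobe.

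IL-6 binds its receptor IL-6R alpha, encoded by Il6ra, and the pair engages the shared subunit gp130, encoded by Il6st. Oncostatin M and leukaemia inhibitory factor use the same gp130 together with the receptors encoded by Osmr and Lifr. Each complex activates JAK kinases, which phosphorylate STAT3, and STAT3 drives the acute phase genes of hepatocytes and Socs3, whose product binds gp130 and JAKs and ends the signal. IL-1 beta and tumour necrosis factor act through other receptors and lead to NF-kappa B, and the IL-1 receptor antagonist encoded by Il1rn occupies the IL-1 receptor without signalling. In liver, Kupffer cells and infiltrating leukocytes are the usual sources of the ligands, and hepatocytes are a main target.

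Depth ran from 12992592 to 59653111 reads over gene entries per library, and 0 reads of a gene allow up to 0.266 CPM (reads scaled to a library of 1e6) in the shallowest library and 0.0421 in the deepest (3 reads, counting error only). Jag1 itself stood at 5.96 ± 0.806 CPM in the Jag1+/+ livers and at 4.84 ± 1.59 CPM in the Jag1Ndr/Ndr livers (mean ± SD, n = 3 per genotype), which does not check the labels, because a missense allele need not alter the transcript level. Xist and Y-linked reads placed 1 Jag1+/+ library (replicate 1) and 2 Jag1Ndr/Ndr libraries (replicates 2 and 3) as female and the others as male, so sex was unevenly spread over the genotypes. The hepatocyte marker list (8 genes such as Alb and Ttr) summed to between 216850.4 and 223998 CPM in the Jag1+/+ livers and between 103693 and 183746 CPM in the Jag1Ndr/Ndr livers. It is the largest sum of any marker list, as befits liver, and 1 of its 8 genes, Ttr, fell (12.5%, beside 2.90% of all genes tested). The labels do not say that each library is a separate animal, and p-values then measure the spread between these libraries, part of which may be technical.

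Of the 9 genes tested, 3 rose in Jag1Ndr/Ndr livers, where the share over all 13819 genes tested was 4.73%. They were Socs3, Il1rn and Osmr, a feedback inhibitor, an antagonist and a receptor (edgeR's quasi-likelihood test, p adjusted over all genes by Benjamini and Hochberg, threshold 0.05). None fell by edgeR, where the share over all genes was 2.90%, while Il6ra and Lifr were lower at an unadjusted p under 0.05 and DESeq2 called 1 member, Lifr, lower. In 5 of the 9 genes every Jag1Ndr/Ndr library lay above every Jag1+/+ library, against 14.8% of all genes tested, and in 2 every one lay below, against 14.2%. The median log2 fold change (Jag1Ndr/Ndr over Jag1+/+ here and throughout) was 0.99 over the 9 genes and 0.00 over all genes tested.

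**Figure D1:**
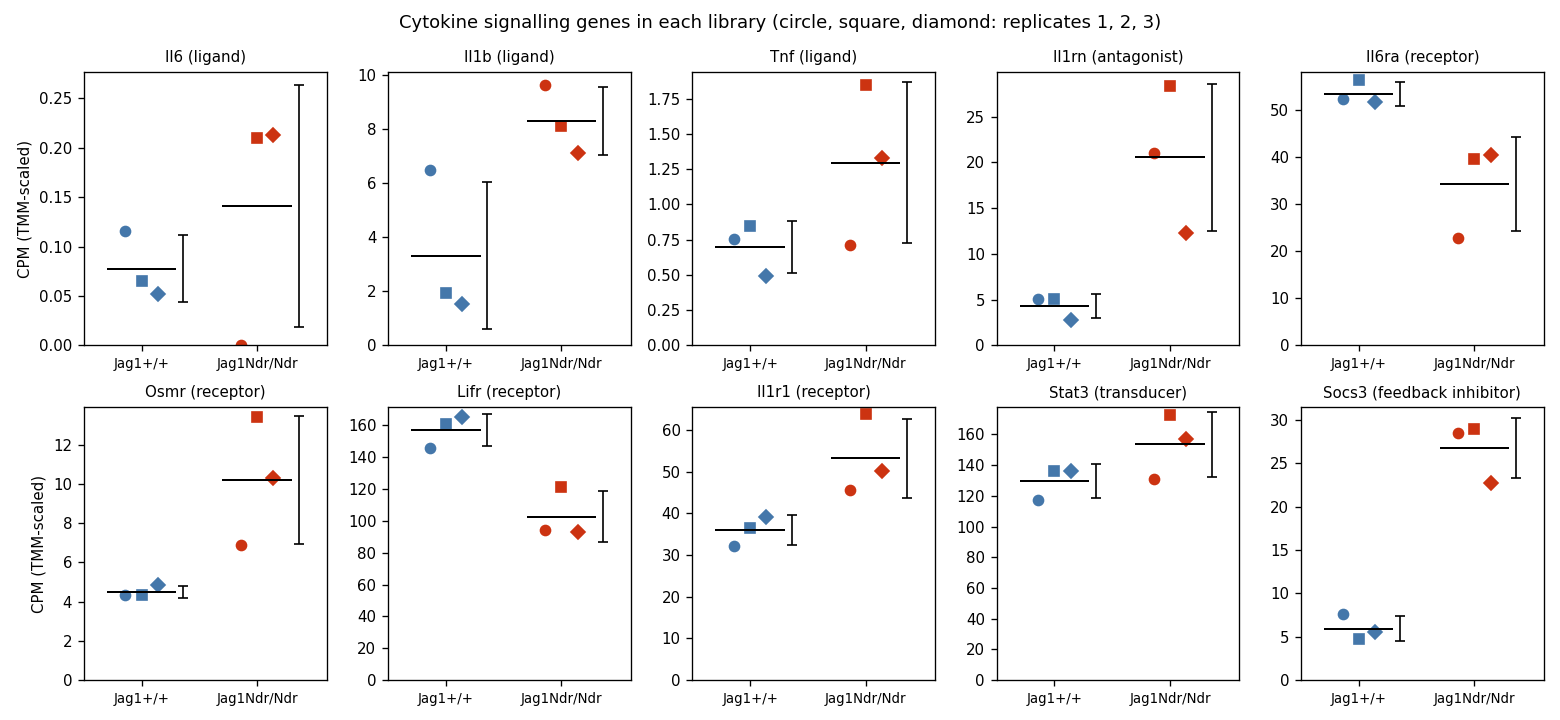
Each panel plots 1 of the 10 genes, with CPM on a linear axis from 0, a symbol for each library by replicate number, a line at the mean and a bar of ± 1 SD beside it, for 3 libraries per genotype. Socs3, Il1rn, Osmr, Il1b and Il1r1 show every Jag1Ndr/Ndr library above the Jag1+/+ libraries, and Il6ra and Lifr show every one below.

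Of the ligands, Il6 was almost absent. The Jag1+/+ replicates 1, 2 and 3 held 2 reads each, and the Jag1Ndr/Ndr replicates 1, 2 and 3 held 0, 15 and 4 reads, or 0, 0.21 and 0.213 CPM. The 6 reads in all from Jag1+/+ livers and 19 from Jag1Ndr/Ndr livers make a ratio of rates of 2.71, with an exact Poisson 95% interval of 1.04 to 8.3 that covers counting error only. The genotypes overlapped, since Jag1Ndr/Ndr replicate 1 had no read and its depth allows up to 0.266 CPM. With no filter Il6 did not pass (edgeR adjusted p = 0.477).

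Il1b, the IL-1 ligand released by activated macrophages, measured 6.48, 1.95 and 1.55 CPM in Jag1+/+ replicates 1, 2 and 3 and 9.66, 8.13 and 7.14 CPM in Jag1Ndr/Ndr replicates 1, 2 and 3. The genotypes did not overlap, but Jag1+/+ replicate 1, the female library, lay close to the Jag1Ndr/Ndr range and far above its group. Its log2 fold change of 1.36 ± 0.50 (SE) did not pass (edgeR adjusted p = 0.151), while it passed by DESeq2 (adjusted p = 0.042) and by limma with quality weights (0.0273). With the replicate number as a block it was 1.61 and passed (edgeR adjusted p = 0.0366). Without Jag1+/+ replicate 1 it was 2.25 and passed (edgeR adjusted p = 0.0239). Without Jag1+/+ replicates 2 and 3 it was 1.08 and 1.00 and did not pass (0.39 and 0.387). Nor did it pass with library totals alone (edgeR adjusted p = 0.158), with no filter (0.12) or by limma in the deposited RPKM (0.0614 and 0.0884). Among the males, the Jag1Ndr/Ndr library stood at 9.66 CPM against 1.95 and 1.55. Among the females, the Jag1Ndr/Ndr libraries stood at 8.13 and 7.14 against 6.48 CPM. With sex as a covariate the log2 fold change was 1.32, close to the reported value, and did not pass (edgeR adjusted p = 0.17). Il1b overlaps the antisense gene Il1bos in the GENCODE M21 annotation, and Il1bos had at most 8 reads in any library by its own entry.

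Tnf, which encodes tumour necrosis factor, was low, between 0.491 and 1.85 CPM over the libraries. It measured 0.752, 0.844 and 0.491 CPM in Jag1+/+ replicates 1, 2 and 3 and 0.709, 1.85 and 1.33 CPM in Jag1Ndr/Ndr replicates 1, 2 and 3. The genotypes overlapped through Jag1Ndr/Ndr replicate 1, and the log2 fold change of 0.99 ± 0.42 did not pass (edgeR adjusted p = 0.209).

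Il1rn, which encodes the IL-1 receptor antagonist and lies at chr2:24336860-24351491 (GRCm38, as are all coordinates here), rose 4.83-fold. It measured 5.04, 5.09 and 2.79 CPM in Jag1+/+ replicates 1, 2 and 3 and 21.0, 28.3 and 12.3 CPM in Jag1Ndr/Ndr replicates 1, 2 and 3. The lowest Jag1Ndr/Ndr library lay above the highest Jag1+/+ library by more than the whole Jag1+/+ range. The log2 fold change was 2.27 ± 0.35 (edgeR adjusted p = 0.00989), and it ranged from 1.96 to 2.53 when each library was left out in turn, always past the threshold. Set against the receptor it blocks, the ratio of Il1rn to Il1r1 RPKM (reads per kilobase of transcript, scaled to depth by the authors) was 0.296, 0.261 and 0.131 in the Jag1+/+ and 0.9, 0.826 and 0.444 in the Jag1Ndr/Ndr replicates 1, 2 and 3. The difference of 1.68 on the log2 scale had an exact permutation p of 0.1 (two-sided, adjusted p = 0.2 over the 2 ratios tested), and 0.1 is the smallest that 3 against 3 libraries allow. The ratio of Il1rn to Il1b RPKM was 0.427, 1.41 and 0.959 in the Jag1+/+ and 1.19, 1.87 and 0.909 in the Jag1Ndr/Ndr replicates 1, 2 and 3, so that the genotypes overlapped (log2 difference 0.60, exact permutation p = 0.5).

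Osmr, the receptor subunit for oncostatin M (chr15:6813568-6874968), rose 2.29-fold. It measured 4.34, 4.32 and 4.83 CPM in Jag1+/+ replicates 1, 2 and 3 and 6.91, 13.4 and 10.3 CPM in Jag1Ndr/Ndr replicates 1, 2 and 3. All Jag1Ndr/Ndr libraries were higher, but they were spread much more widely than the Jag1+/+ libraries, with replicate 1 lowest. The log2 fold change was 1.2 ± 0.26 (edgeR adjusted p = 0.0316). Its call was lost without Jag1+/+ replicates 1, 2 and 3 (edgeR adjusted p = 0.114, 0.126 and 0.101) and when Jag1Ndr/Ndr replicates 2 or 3 were dropped (0.0594 and 0.0668). Adjusted for sex, edgeR gave an adjusted p of 0.101, and the call was also lost with library totals alone and in the deposited RPKM.

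The receptors for IL-6 and leukaemia inhibitory factor lay lower in Jag1Ndr/Ndr livers without passing the test. Il6ra measured 52.4, 56.4 and 51.7 CPM in Jag1+/+ replicates 1, 2 and 3 and 22.9, 39.7 and 40.5 CPM in Jag1Ndr/Ndr replicates 1, 2 and 3. The genotypes did not overlap, and Jag1Ndr/Ndr replicate 1 lay apart as the lowest library (log2 fold change -0.63 ± 0.22, edgeR adjusted p = 0.123). Lifr measured 146, 161 and 165 CPM in the Jag1+/+ and 94.2, 121 and 92.8 CPM in the Jag1Ndr/Ndr replicates 1, 2 and 3. These groups did not overlap either, and the log2 fold change of -0.62 ± 0.17 missed the threshold (edgeR adjusted p = 0.0606). Lifr passed in 4 other settings, among them without Jag1Ndr/Ndr replicate 2 (edgeR adjusted p = 0.0309) and by DESeq2 (adjusted p = 0.00822). It did not pass in 12, among them with sex as a covariate (edgeR adjusted p = 0.128) and without Jag1+/+ replicates 1, 2 and 3 (0.136, 0.21 and 0.224). In bulk RNA, fewer cells of a type and less RNA per cell cannot be told apart. The summed hepatocyte markers were also lower in every Jag1Ndr/Ndr library, as given above, and their part in these values was not tested. That sum is mostly Alb, which encodes albumin (log2 fold change -0.66 ± 0.28, edgeR adjusted p = 0.214). Over the whole list the median log2 fold change was -0.47, and Ttr fell (-1.37 ± 0.28, edgeR adjusted p = 0.0238). Apob was lower without overlap and did not pass (-0.28 ± 0.18, edgeR adjusted p = 0.441). Apoa1, Serpina1e and Cps1 had negative values with overlap, at -0.78 ± 0.37, -1.3 ± 0.45 and -0.21 ± 0.47 (edgeR adjusted p = 0.264, 0.123 and 0.851). Hnf4a and Tat were not lower, at 0.08 ± 0.20 and 0.95 ± 0.59 with overlap (edgeR adjusted p = 0.865 and 0.399).

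Il1r1, the signalling receptor of IL-1, measured 32.1, 36.6 and 39.2 CPM in Jag1+/+ replicates 1, 2 and 3 and 45.6, 63.9 and 50.1 CPM in Jag1Ndr/Ndr replicates 1, 2 and 3. The genotypes lay apart by a small gap, and the log2 fold change of 0.57 ± 0.17 did not pass (edgeR adjusted p = 0.0832). It passed when Jag1Ndr/Ndr replicate 1 was dropped (log2 fold change 0.66, edgeR adjusted p = 0.0425) and by DESeq2 (adjusted p = 0.0455). In the 14 other settings it did not pass, among them with sex as a covariate (edgeR adjusted p = 0.181).

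Stat3, the transcription factor on which the gp130 receptors converge, measured 117, 136 and 136 CPM in Jag1+/+ replicates 1, 2 and 3 and 131, 173 and 157 CPM in Jag1Ndr/Ndr replicates 1, 2 and 3. The genotypes overlapped, and the log2 fold change was 0.25 ± 0.17 (edgeR adjusted p = 0.445). Transcript level says nothing of STAT3 phosphorylation, by which the protein is switched on. Stat3 and Stat5a overlap on opposite strands in the GENCODE M21 annotation, where reads of the shared stretch cannot be told apart without strand. Reads were counted per RefSeq entry, however, and the RefSeq bounds chr11:100886806-100939594 (Stat3) and chr11:100859351-100885169 (Stat5a) do not overlap.

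Socs3, the feedback inhibitor that STAT3 induces (chr11:117966079-117970336), rose 4.53-fold and had the smallest adjusted p of the 9 genes. It measured 7.58, 4.77 and 5.5 CPM in Jag1+/+ replicates 1, 2 and 3 and 28.5, 29.0 and 22.8 CPM in Jag1Ndr/Ndr replicates 1, 2 and 3. Every Jag1Ndr/Ndr library lay well above the Jag1+/+ range, and the Jag1Ndr/Ndr libraries were close together. The log2 fold change was 2.18 ± 0.22 (edgeR adjusted p = 0.0024). It lay between 2.04 and 2.38 when each library was left out in turn and was 2.13 with sex as a covariate (edgeR adjusted p = 0.00726).

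The stretches before the annotated starts of Socs3 and Il1rn, the tested members with the largest changes, are shown because each holds a match to a motif searched for here, that of STAT factors or that of AP-1, the dimer of Jun and Fos proteins. They come from RefSeq promoters on GRCm38.p6 and run 5′ to 3′ on the gene's strand from 250 bases before the annotated start to the first base that GENCODE M21 places in an exon. In Socs3 the capitals mark a match to the STAT palindrome TTCNNNGAA that begins 154 bases before the start given in the RefSeq promoter table. Longer Socs3 transcripts begin farther upstream, so this stretch lies within the outer bounds of the gene given above. In Il1rn they mark a match to the AP-1 motif TGANTCA that begins 141 bases before the first of its 3 annotated starts.
Socs3, chr11:117969452-117969616, minus strand: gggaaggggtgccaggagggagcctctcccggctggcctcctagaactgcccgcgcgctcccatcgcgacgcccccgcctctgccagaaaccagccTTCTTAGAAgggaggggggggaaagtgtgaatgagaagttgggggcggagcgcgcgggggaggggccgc
Il1rn, chr2:24336610-24336852, plus strand: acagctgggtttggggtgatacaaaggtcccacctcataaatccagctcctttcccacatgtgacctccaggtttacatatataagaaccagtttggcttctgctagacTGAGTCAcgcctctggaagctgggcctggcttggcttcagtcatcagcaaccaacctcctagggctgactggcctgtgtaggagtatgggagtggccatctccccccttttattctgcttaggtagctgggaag

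The 10 genes have 14 annotated starts in that table, and the window of 250 bases before each was searched on both strands. TTCNNNGAA was found in 1 window, that of Socs3, and in 7.02% of 32851 windows of all genes. Its narrower form TTCCNGGAA, each match of which is also a match to TTCNNNGAA, was found in 0 of the 14 and in 0.913% of all. TGANTCA was found in 2 windows, of Il1rn and Il6, and in 6.75% of all, and the C/EBP motif TTNNGNAAT in 5 windows, of Il1b, Il1r1, Il1rn and Il6, and in 10.2% of all. The NF-kappa B motif was found in 2 windows, of Il6 and Il1r1, and in 3.9% of all, and the match in Il1r1 overlaps a C/EBP match. These matches describe letters in a window and do not show that a factor binds there.

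Levels of the 10 genes can be compared with each other per length, in deposited RPKM within a genotype. In Jag1+/+ livers Lifr was highest with a mean of 34.3 RPKM, followed by Stat3 with 27.1, Il6ra with 15.0 and Il1r1 with 7.35. Il1b, Socs3 and Il1rn followed at 2.36, 2.05 and 1.65 RPKM with ranges that overlapped between Il1b and Socs3 and between Socs3 and Il1rn, and Osmr, Tnf and Il6 were lowest at 0.872, 0.399 and 0.067 RPKM. In Jag1Ndr/Ndr livers Socs3 and Il1rn had means of 11.5 and 10.03 RPKM, beside 12.7 for Il6ra, and the ranges of these genes overlapped. The authors multiplied RPKM by a factor per library, 0.7957, 1.276 and 1.099 in Jag1Ndr/Ndr replicates 1, 2 and 3. These means therefore weigh replicate 2 most, and the ranges carry the factors. Stat3, for example, ran from 21.0 to 60.01 RPKM but from 131 to 173 CPM in these libraries. Tnf and Il6 had the lowest means in both genotypes.

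The rest of the IL-6 family was represented by 25 genes, of which 20 were tested. Of these 1 rose, or 5.0%, close to the 4.73% over all genes, and 2 fell (10.0%, beside 2.90%), and the median log2 fold change was 0.00. The gene that rose was Lif, which encodes leukaemia inhibitory factor, the ligand of the receptor encoded by Lifr. It measured 0.0579, 0.195 and 0.129 CPM in Jag1+/+ replicates 1, 2 and 3 and 2.04, 4.68 and 1.71 CPM in Jag1Ndr/Ndr replicates 1, 2 and 3, every one of them far above the Jag1+/+ libraries. The log2 fold change was 4.38 ± 0.57 (edgeR adjusted p = 0.00554) and 3.73 without Jag1Ndr/Ndr replicate 2, and it rests on 12 reads in all from Jag1+/+ livers and 389 from Jag1Ndr/Ndr livers. Osm, which encodes oncostatin M, went from 0.33 ± 0.0528 to 0.932 ± 0.254 CPM without overlap and missed the threshold (log2 fold change 1.49 ± 0.39, edgeR adjusted p = 0.0539), passing without Jag1Ndr/Ndr replicate 3 (0.0491).

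The shared machinery of the family did not pass. Il6st, which encodes gp130, measured 97.5, 113 and 107 CPM in the Jag1+/+ and 107, 189.7 and 131 CPM in the Jag1Ndr/Ndr replicates 1, 2 and 3, with overlap (log2 fold change 0.43 ± 0.22, edgeR adjusted p = 0.302). The kinases Jak1 and Jak2 differed by 0.28 ± 0.17 and 0.29 ± 0.16 on the log2 scale (edgeR adjusted p = 0.373 and 0.347). Stat5b and Stat5a, which transmit growth hormone signals in hepatocytes, fell 1.72-fold and 1.69-fold (edgeR adjusted p = 0.0318 and 0.0351). Both lost the call without each Jag1+/+ library, without Jag1Ndr/Ndr replicate 3 and with sex as a covariate (edgeR adjusted p between 0.0569 and 0.166).

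In the IL-1 family, 5 of 25 tested genes rose, or 20.0% beside 4.73% of all genes, and 1 fell, or 4.0% beside 2.90%, with a median log2 fold change of 0.29. The fall was in Il1rap, the accessory protein that Il1r1 needs to signal, from 87.2 ± 3.08 to 51.3 ± 3.51 CPM, by -0.76 ± 0.13 on the log2 scale (edgeR adjusted p = 0.0143). Il1r2, a decoy receptor that binds IL-1 without signalling, rose from 0.0579, 0.357 and 0.284 CPM in the Jag1+/+ to 2.22, 1.77 and 1.65 CPM in the Jag1Ndr/Ndr replicates 1, 2 and 3 (log2 fold change 2.86 ± 0.47, edgeR adjusted p = 0.0116). Il18bp, a secreted protein that neutralises IL-18, rose from 32.5 ± 4.3 to 71.8 ± 16.8 CPM (edgeR adjusted p = 0.0135). The decoy, the binding protein and Il1rn showed no overlap between the genotypes, but they had passed a test on the same values. The other genes of the family that rose, named below, showed no overlap either. All these genes were picked by that test, so this cannot be set against the 14.8% of all genes tested that were higher without overlap.

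The other genes of the family that rose were Il1f9, the table's symbol for the ligand IL-36 gamma (5.49-fold, edgeR adjusted p = 0.0219), the adaptor Myd88 (1.59-fold, 0.0337) and the IL-18 receptor subunit Il18r1 (2.92-fold, 0.0435). Il1a, which encodes the second IL-1 ligand, measured 14.2, 8.86 and 5.27 CPM in the Jag1+/+ and 10.1, 10.6 and 13.1 CPM in the Jag1Ndr/Ndr replicates 1, 2 and 3, with overlap (log2 fold change 0.27 ± 0.33, edgeR adjusted p = 0.703). Il33 and Il18, which encode 2 further cytokines of the family, differed by 0.29 ± 0.24 and -0.30 ± 0.21 on the log2 scale (edgeR adjusted p = 0.564 and 0.471). Most calls of the family were lost whichever Jag1+/+ library was left out. Without Jag1+/+ replicates 1, 2 and 3 the number of IL-1 family genes that rose was 1, 1 and 0. Over all genes the number higher also dropped, from 653 to 211, 164 and 182. Il1rap, Il18bp, Il1f9, Myd88 and Il18r1 each lost the call without any of the 3 Jag1+/+ libraries (edgeR adjusted p between 0.0519 and 0.174), and Il1r2 without replicate 3 (0.0516). Myd88 also lost it without Jag1Ndr/Ndr replicate 2 (0.064), and Il18r1 without Jag1Ndr/Ndr replicates 2 and 3 (0.107 and 0.0679). Adjusted for sex, Il1f9, Myd88 and Il18r1 did not pass (edgeR adjusted p = 0.0837, 0.0732 and 0.126). Il18bp, Myd88, Il1rap and Il1r2 overlap Numa1, Acaa1a, Gm20319 and Gm16894 on the opposite strand in GENCODE M21. The RefSeq entries by which reads were counted may have other bounds, and reads of any shared stretch cannot be told apart. The same holds for Junb with Prdx2, Cebpd with Spidr and Nfkb2 with Psd.

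**Figure D2:**
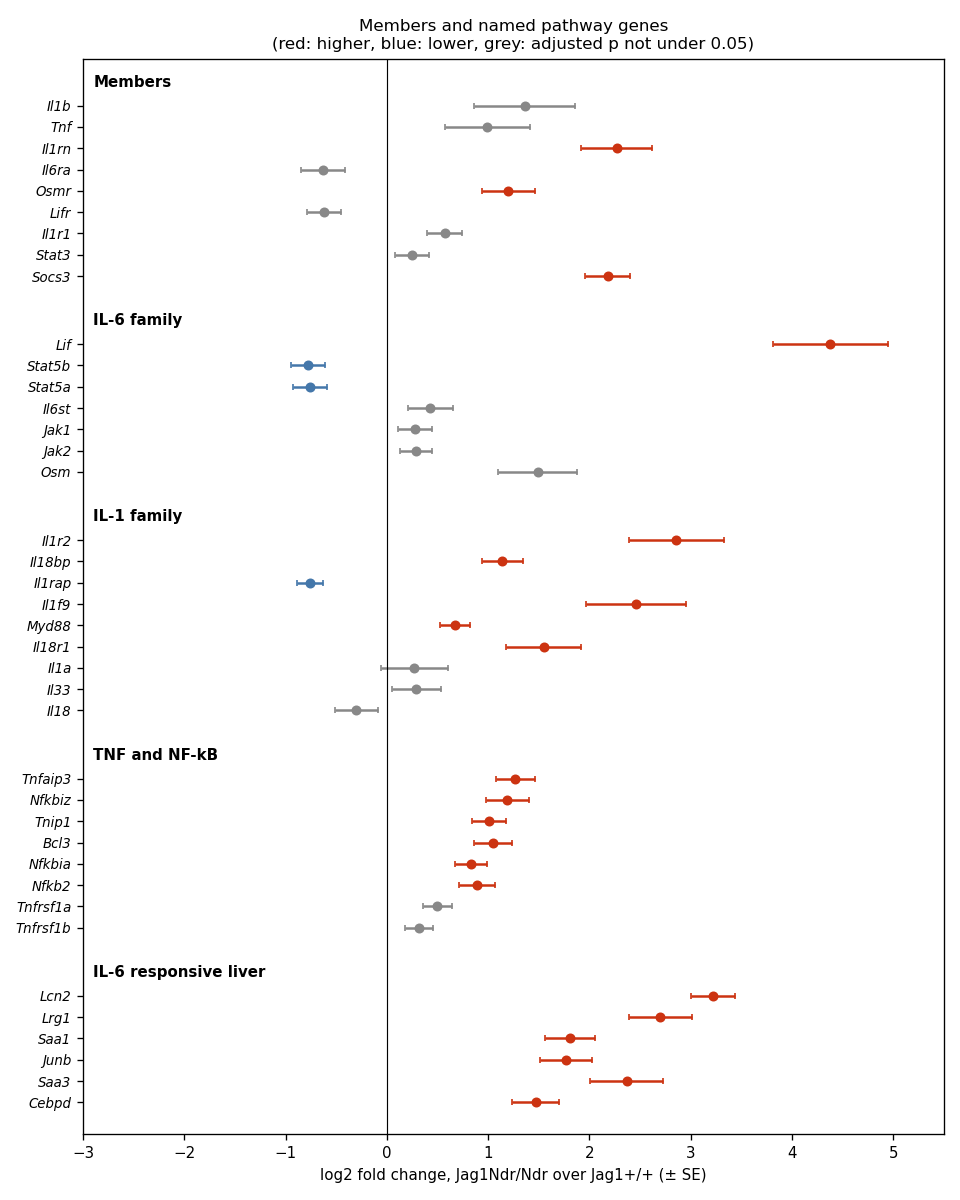
Points are log2 fold changes of Jag1Ndr/Ndr over Jag1+/+ with ± 1 SE, from edgeR on 3 libraries per genotype, for the 9 tested members and the named genes of 4 lists, red or blue where the adjusted p was under 0.05 and grey otherwise. Lif had the largest value at 4.38, and all 6 NF-kappa B genes in red lie between 0.83 and 1.27.

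Of 28 tested genes of TNF and NF-kappa B signalling 6 rose, or 21.4% beside 4.73% of all genes, and the median log2 fold change was 0.31. None fell by edgeR or by DESeq2, with 1 lower at an unadjusted p under 0.05. The 6 were Tnfaip3, which encodes the ubiquitin-editing enzyme A20 that restrains NF-kappa B, its binding partner Tnip1, the inhibitor Nfkbia, the nuclear I-kappa-B proteins Nfkbiz and Bcl3, and the subunit Nfkb2. Tnfaip3 measured 5.9, 7.82 and 6.69 CPM in the Jag1+/+ and 13.6, 17.7 and 18.0 CPM in the Jag1Ndr/Ndr replicates 1, 2 and 3, a difference of 1.27 ± 0.19 on the log2 scale (edgeR adjusted p = 0.00925). Nfkbia measured 24.0, 18.2 and 18.0 CPM in the Jag1+/+ and 35.3, 37.3 and 34.4 CPM in the Jag1Ndr/Ndr replicates 1, 2 and 3, a difference of 0.83 ± 0.16 on the log2 scale (edgeR adjusted p = 0.0203). In all 6 genes the genotypes did not overlap. These genes were picked by a test on the same values, so this cannot be set against the 14.8% of all genes.

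The TNF receptors Tnfrsf1a and Tnfrsf1b differed by 0.50 ± 0.14 and 0.32 ± 0.14 on the log2 scale (edgeR adjusted p = 0.0726 and 0.229), and Tnfrsf1a passed by DESeq2 (adjusted p = 0.0282). Without Jag1+/+ replicates 1, 2 and 3 the number of NF-kappa B genes that rose was 2 each time. Nfkbiz and Nfkb2 lost the call without each of these libraries, Tnip1 without replicates 1 and 3, Bcl3 without 1 and 2 and Nfkbia without 2 and 3 (edgeR adjusted p between 0.0537 and 0.112), while Tnfaip3 kept it. Adjusted for sex, Nfkb2 did not pass (edgeR adjusted p = 0.055). In the deposited RPKM, whose scaling differs, limma called 0 of the 28.

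Among 25 liver genes known to respond to IL-6, 12 of the 24 tested rose, against the 4.73% of all genes, with a median log2 fold change of 1.06. None fell by edgeR, none was lower at an unadjusted p under 0.05 and DESeq2 called 0 lower. The other 12 did not pass, with Hp nearest (log2 fold change 1.12, edgeR adjusted p = 0.052). Among them the fibrinogen genes Fga, Fgb and Fgg overlapped, at 0.17, 0.25 and 0.12 on the log2 scale. A2m and Hamp had negative values of -0.89 ± 0.78 and -1.3 ± 1.47 with overlap, and Itih4 of -0.37 ± 0.19 without. Hamp measured 63.4, 1.78 and 0.155 CPM in the Jag1+/+ and 8.06, 3.46 and 15.0 CPM in the Jag1Ndr/Ndr replicates 1, 2 and 3. Its sign thus rests on Jag1+/+ replicate 1. The list was drawn up with earlier results on acute phase genes of these libraries known, so its direction is not independent evidence. Lrg1, a secreted leucine-rich glycoprotein, measured 96.0, 108 and 94.6 CPM in the Jag1+/+ and 967, 452 and 522 CPM in the Jag1Ndr/Ndr replicates 1, 2 and 3 (log2 fold change 2.70 ± 0.31, edgeR adjusted p = 0.00343). The transcription factors Junb and Cebpd rose 3.41-fold and 2.76-fold (edgeR adjusted p = 0.00866 and 0.0096). Saa1 and Saa3, members of the serum amyloid family, in which counting may split reads between close paralogs, rose 3.51-fold and 5.17-fold, and Lcn2, a lipocalin that sequesters iron, 9.29-fold. Without Jag1+/+ replicates 1, 2 and 3 the number that rose was 7, 5 and 6, and Cebpd lost its call without Jag1+/+ replicate 2 (edgeR adjusted p = 0.0517).

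Some markers of cells that make or carry these cytokines differed in the Jag1Ndr/Ndr libraries as well, where 4.73% of all genes rose and 2.90% fell. Of 9 neutrophil markers tested 6 rose (66.7%) and none fell. Their summed level was 619 to 745 CPM in the Jag1+/+ livers and 1059.6 to 2338 CPM in the Jag1Ndr/Ndr livers. Of 10 Kupffer cell markers 1 rose (10.0%), Cd68, and the sum was 822 to 1445 CPM in the Jag1+/+ livers and 1675 to 2802 CPM in the Jag1Ndr/Ndr livers. Marco and Cd5l were higher without overlap but did not pass (edgeR adjusted p = 0.0579 and 0.0991), and the remaining Kupffer cell markers overlapped. Of 8 markers of monocytes and inflammatory macrophages 3 rose (37.5%), Gpnmb, Ccr2 and Trem2. The sum of the list overlapped, at 81.3 to 121 CPM and 72.8 to 155 CPM. In the Jag1+/+ livers that sum was mostly Spp1, at 75.1 ± 19.7 CPM beside 42.1 ± 38.0 CPM in the Jag1Ndr/Ndr livers (log2 fold change -0.83 ± 0.54, edgeR adjusted p = 0.425). The other markers of the list had positive log2 fold changes, with overlap in Itgam and Itgax. No marker in these 3 lists was at 0 in all libraries, except that Ly6g had no entry. Il1rn, Il1r2, Il1b and Tnf are expressed by such cells, and the part of the markers in their values was not tested.

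**Figure D3:**
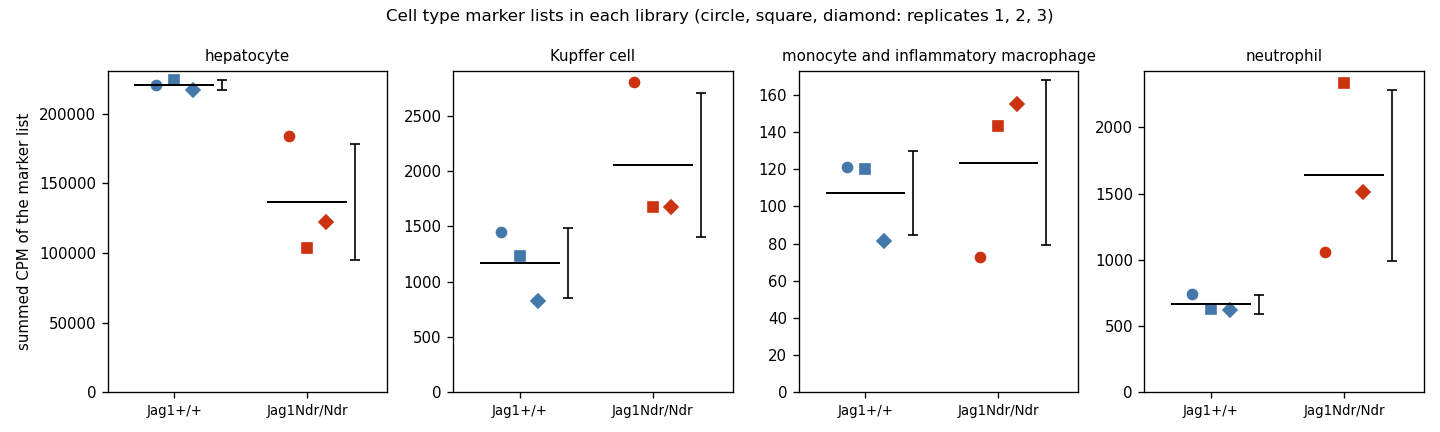
Each panel plots the summed CPM of a list of cell type markers by library, on a linear axis from 0, with a symbol per replicate, a line at the mean and a bar of ± 1 SD, for 3 libraries per genotype. Hepatocyte sums are lower and Kupffer cell and neutrophil sums higher in every Jag1Ndr/Ndr library. The monocyte and inflammatory macrophage sums overlap, and in the Jag1+/+ libraries they are mostly Spp1.

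The Jag1Ndr/Ndr libraries did not share an order over the members. Replicate 2 was highest for Il1rn, Osmr, Lifr, Il1r1, Stat3, Socs3 and Tnf, replicate 1 for Il1b, and replicate 3, by a small margin, for Il6ra and Il6. Replicate 1 was lowest for Il6ra, Osmr, Il1r1, Stat3, Tnf and Il6, while its neutrophil sum was the lowest and its Kupffer cell sum the highest of the 3 libraries.

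The transcripts whose pattern was most like that of Socs3 were sought over the 6 libraries, by Pearson correlation of log2 CPM among 11621 other genes with a mean of at least 1 RPKM. They were Anxa7 (r = 0.994), Ephx1 (0.991), Cyb5r4 (0.991), Cap1 (0.990) and Zfand5 (0.990), and 554 genes reached an r of 0.9 or more. The 6 points share the split by genotype and the scaling of each library, so these r values carry no p. Their log2 fold changes, between 0.41 and 1.22, were smaller than that of Socs3, and Anxa7 and Ephx1 passed the threshold (edgeR adjusted p = 0.022 and 0.0125).

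**Figure D4:**
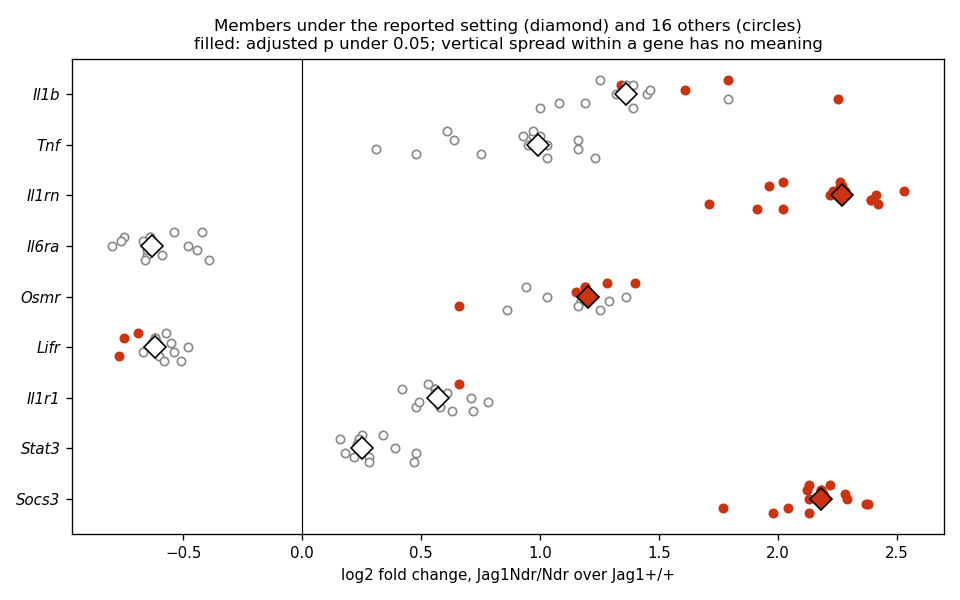
Diamonds give the reported log2 fold change of each tested member and circles the values under the other settings (16 for each gene, 15 for Tnf, which a stricter filter removes), filled where the adjusted p was under 0.05. All values of a gene lie on the same side of 0, those of Socs3 and Il1rn are filled throughout, and those of Osmr, Il1b, Lifr and Il1r1 change with the setting.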

How the data were processed

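Per the labels' protocols, RNA from a liver lobe of each sample was made into polyadenylated RNA libraries with the TruSeq RNA kit v2. Per the submitters' processing notes, STAR and the build mm10 were used. Their versions and the tool that counted reads are not stated there. The deposited table holds whole read counts per RefSeq gene entry, without normalization, and RPKM in which the authors applied each library's TMM factor as a multiplier, per the file headers. Counts were the main measurement. edgeR divides by such factors, so RPKM served only to compare genes within a genotype or library and for alternatives. The factor is shared by all genes of a library and leaves their order there unchanged, but RPKM means and ranges over libraries carry it.

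Columns were assigned by their names, and the 93 entries for spike-ins and eGFP, which hold 5 reads together, were not used. Genes passing filterByExpr (13819 of 24489) were TMM-scaled and entered edgeR's quasi-likelihood test (edgeR 4.0.16, R 4.3.3), two-sided, with Benjamini-Hochberg adjustment over all of them and a threshold of 0.05. SE was derived from the fold change and the test's F. The common biological coefficient of variation was 0.243. CPM are counts over TMM-scaled library totals. The procedure was tested on simulated data. Alternatives used DESeq2 1.42.0 and limma 3.58.1.

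The members, gene lists and alternatives were chosen with earlier results of these data known. Named genes are all members, up to 6 genes past the threshold per list by smallest adjusted p, and fixed core genes of each pathway. Overlapping genes were read from GENCODE M21 and names from RefSeq on GRCm38.p6. Of the 28 IL-1 family symbols, Il36g and Il36rn are listed beside their older symbols and count once, leaving 26 entries. Il1f5 had no read. Of the cell type lists not described in the results, those of sinusoidal endothelium, cholangiocytes and lymphocytes had 0 genes past the threshold by edgeR in either direction (1, 0 and 2 at an unadjusted p under 0.05). The stellate cell and fibroblast list had 1 gene lower of 8 (12.5%, beside 2.90% of all genes), and the erythroid list 2 higher of 4 tested (50.0%, beside 4.73%).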

Additional observations from a re-analysis of the deposited data

How the results depend on the processing

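All 9 tested members kept their direction under the 16 alternatives run (15 for Tnf), and Socs3 and Il1rn kept their calls in all 16, Osmr in 7. By DESeq2 5 members were higher and 1 lower. Lifr was also the 1 member called lower with quality weights and with the header factors dividing. IL-6 family genes called lower numbered 0 with library totals alone, 0 in the deposited RPKM with either pseudocount (1 and 0.1), 1 with the header factors dividing and 0 with sex as a covariate. IL-1 family genes called higher numbered 8 by DESeq2, 3 with library totals alone, 3 and 2 in the deposited RPKM (pseudocounts 0.1 and 1) and 2 with sex as a covariate, and those called lower 0, 0 and 0 with library totals and in the deposited RPKM and 2 with quality weights. NF-kappa B genes called higher numbered 0 in the deposited RPKM with either pseudocount. Library totals alone and the deposited RPKM moved the median log2 fold change of all genes up by 0.13 and 0.21 (0.22 with a pseudocount of 0.1), and higher genes made up 62.0% of all calls as reported, 74.3% and 79.3% there. Over all genes 653 were higher and 401 lower, against 366 and 230 with sex as a covariate, 1123 and 735 by DESeq2, and 164 to 211 higher without a Jag1+/+ library.

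Leaving out each library in turn, the members called higher ranged from 2 to 4 and lower from 0 to 1, the IL-6 family genes from 1 to 2 and from 0 to 3, the IL-1 family genes from 0 to 7 and from 0 to 2, the NF-kappa B genes called higher from 2 to 7 and the IL-6 responsive genes from 5 to 12. The log2 difference of the Il1rn to Il1b ratio ranged from 0.12 to 0.98 and that of Il1rn to Il1r1 from 1.31 to 1.99. The cause of these shifts was not tested. Replicate numbers were not treated as pairs in the main fit. The deviations of same-numbered libraries correlated weakly, at 0.086, 0.17 and 0.195. Those of differently numbered libraries correlated between -0.169 and -0.019, so each library correlated best with its own number. Same-numbered libraries also share a prefix in the sample descriptions, whose meaning the labels do not give. With the replicate number as a block 4 members were higher (Il1b joined, adjusted p = 0.0366), and the counts of the lists stayed within 1.5 times. Depth limits Il6, with at most 15 reads in a library.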
